A study of Mus musculus with 4 samples.

Results

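The transcripts of 10 genes of T cell costimulation and inhibition were followed through every cell class of the mouse nasal mucosa. The members were found by their symbols among the 27998 genes of the count matrices and all 10 were present: the T cell-side genes *Pdcd1*, *Ctla4*, *Icos*, *Tnfrsf4* and *Cd40lg*, and the genes of their partners on other cells, *Cd274*, *Pdcd1lg2*, *Icosl*, *Cd80* and *Cd86*. The data were 4 droplet single-cell RNA libraries of CD45+ nasal mucosal cells from C57BL/6 mice aged 8 weeks, with 1 library in each group. The groups were Vehicle (the solvent control, without ovalbumin), Vehicle-OVA (the same with ovalbumin, the allergen of this allergic rhinitis model), Ribavirin (the antiviral nucleoside analogue, without ovalbumin) and Ribavirin-OVA (both). How many animals were pooled in a library was not given in the sources used here. No spread between samples could be measured and no test was made: every interval below is a 95% interval that covers counting error only.

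T cells that meet antigen need a second signal, which CD80 and CD86 on antigen-presenting cells give through CD28. CTLA-4 competes for the same ligands and restrains the cell, and PD-1, bound by PD-L1 (*Cd274*) or PD-L2 (*Pdcd1lg2*), inhibits signalling in T cells that have been activated. ICOS (ligand ICOSL), OX40 (*Tnfrsf4*) and CD40 ligand (*Cd40lg*) are induced or raised on activated T cells and serve T cell help, survival and the licensing of B cells and dendritic cells.

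The libraries held 28277, 19143, 21401 and 10311 barcodes in the order Vehicle, Vehicle-OVA, Ribavirin, Ribavirin-OVA, with 91742940 to 171873110 UMIs (unique molecular identifiers) each. After filtering, 69107 cells formed 43 clusters, and the members had been kept out of the genes used to cluster them. Any pair of libraries shared 57 to 174 barcodes. Levels are given as CPM, the UMIs of a gene summed over the cells of a class in a library, per 1000000 UMIs of those cells. Values given for the 4 libraries follow the order above. The Ribavirin library had no kept cell under 1000 UMIs in the classes described here, whereas the other libraries had. With OVA the median gene was itself displaced on the log2 scale, by 0.37 (vehicle) and 0.36 (ribavirin) in T cell-like cells. The shifts were 0.17 and 0.21 in macrophage-like cells, 0.38 and 0.42 in conventional DC-like cells, and -0.60 and 0.29 in neutrophil-like cells. Changes relative to the median gene are given for *Ctla4*, *Icos*, *Pdcd1* and *Tnfrsf4* in T cell-like cells and for *Pdcd1lg2* in macrophage-like cells. All other ratios are given without this adjustment.

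*Cd274* and *Pdcd1lg2* encode the PD-1 ligands and lie next to each other on mouse chromosome 19, at chr19:29367455-29388095 and chr19:29410919-29471161 (GRCm38, plus strand), with starts 43.5 kb apart. They are shown because their transcripts were distributed differently over the cells, as given below. The 250 bases before each RefSeq start (GRCm38.p6, plus strand, chr19:29367188-29367437 and chr19:29410669-29410918) read as follows, with capitals for a match to TTCNNNNGAA, a spacing that STAT6 is known to bind.
Cd274: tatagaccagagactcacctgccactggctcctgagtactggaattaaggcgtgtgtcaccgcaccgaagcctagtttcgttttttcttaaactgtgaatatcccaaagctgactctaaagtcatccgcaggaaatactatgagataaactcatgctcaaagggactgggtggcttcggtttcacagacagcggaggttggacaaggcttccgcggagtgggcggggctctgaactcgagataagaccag
Pdcd1lg2: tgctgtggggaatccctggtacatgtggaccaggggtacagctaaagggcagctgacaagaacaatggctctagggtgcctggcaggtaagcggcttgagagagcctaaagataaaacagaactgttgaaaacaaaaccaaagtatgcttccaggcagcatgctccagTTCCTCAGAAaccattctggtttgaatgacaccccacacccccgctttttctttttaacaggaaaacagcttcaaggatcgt
The match in *Pdcd1lg2* began 82 bases before the start, and 5.85% of 32851 promoter windows of this length held one on either strand. TTCNNNGAA and GAAANNGAAA were in neither sequence and were in 7.02% and 2.98% of all windows. TGANTCA was also in neither and was in 6.75% of all windows. Of the 7 members with a sequence in the RefSeq table, TTCNNNNGAA was in *Pdcd1lg2* alone and TGANTCA in *Cd80* alone. The motifs were searched on both strands and after the levels were known, and a match is a run of letters, not a bound site. On the same build *Ctla4* (chr1:60887000-60915832) and *Icos* (chr1:60977927-61000320) are neighbours on the plus strand of chromosome 1, and *Pdcd1* (chr1:94038305-94052553) lies on its minus strand. *Tnfrsf4* is at chr4:156013843-156016612, *Cd40lg* at chrX:57212143-57224042 and *Icosl* at chr10:78069302-78083913. *Cd86* (chr16:36603869-36666081) and *Cd80* (chr16:38455561-38496335) share chromosome 16.

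Each T cell-side gene had its UMIs mainly in T cell-like cells, whereas the ligand genes were spread over several myeloid and lymphoid classes. T cell-like cells held 96.5% to 98.2% of the *Cd40lg* UMIs of a library, 93.1% to 94.8% of *Icos*, 88.0% to 92.2% of *Tnfrsf4*, 86.5% to 90% of *Pdcd1* and 75.5% to 81.5% of *Ctla4*. The summed T cell markers of these cells stood at 4005 to 4524 CPM, against 22.5 to 35.6 CPM in macrophage-like cells. No myeloid class held so large a part of a ligand in every library. Macrophage-like cells held 41.3% to 58.0% of *Cd86* UMIs and neutrophil-like cells 42.4% to 53.5% of *Cd80* UMIs. Neutrophil-like cells held 25.2% to 59.2% of *Cd274* UMIs, a share that leaves out the unnamed cells. In Vehicle-OVA the unnamed cells had *Cd274* at 2123 CPM, and 97.1% of them were in cluster 8, described below. The share of *Pdcd1lg2* in macrophage-like cells was 6.08% in Vehicle and 4.81% in Ribavirin, and 42.3% in Vehicle-OVA and 69.0% in Ribavirin-OVA.

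**Figure D1:**
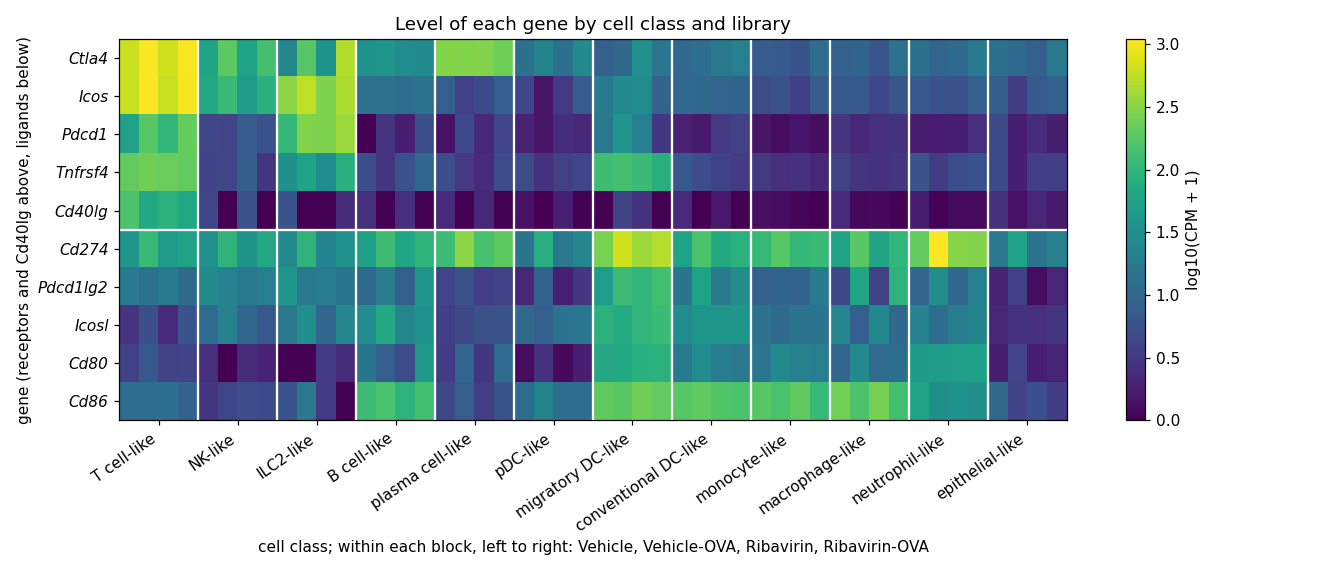
Level of each gene as log10(CPM + 1) (colour) in 12 cell classes, with the 4 libraries side by side in each class and each square 1 library. The T cell-side genes were brightest in T cell-like cells, apart from *Pdcd1*, which was higher in ILC2-like cells, with *Ctla4* also at 233 to 302 CPM in plasma cell-like cells, and *Cd274* reached 1099 CPM in Vehicle-OVA neutrophil-like cells.

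*Ctla4* encodes the inhibitory receptor that competes with CD28. In T cell-like cells it stood at 629 CPM in Vehicle, 1062 in Vehicle-OVA, 671 in Ribavirin and 1022 in Ribavirin-OVA, from 9358 to 19900 UMIs. Both OVA libraries were above both libraries without OVA and the counting intervals of the 2 sets did not overlap. The ratio with OVA was 1.69 (1.65 to 1.73) under vehicle and 1.52 (1.49 to 1.56) under ribavirin. Relative to the median gene this left 0.38 and 0.25 on the log2 scale.

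*Icos*, the costimulator bound by ICOSL, followed a similar order. Its levels in T cell-like cells were 611, 1093, 609 and 997 CPM in the 4 libraries. The 2 libraries without OVA did not differ beyond counting error, with a ratio of 1.00 (0.98 to 1.02) of Ribavirin over Vehicle. With OVA the ratio was 1.79 (1.75 to 1.83) under vehicle and 1.64 (1.60 to 1.68) under ribavirin, or 0.47 and 0.35 log2 above the median gene.

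*Pdcd1*, which encodes PD-1, had the largest ratio of the 5 genes. It was at 55.3 CPM in Vehicle, 178 in Vehicle-OVA, 102 in Ribavirin and 210 in Ribavirin-OVA. Vehicle was the lowest library and the remaining order was Ribavirin, Vehicle-OVA and Ribavirin-OVA. The ratio with OVA was 3.21 (3.00 to 3.44) under vehicle and 2.06 (1.95 to 2.18) under ribavirin, which was 1.31 and 0.68 log2 above the median gene. It was thus the 1 of 5 members at least 2-fold higher with OVA in T cell-like cells in both pairs, where 18.4% (vehicle) and 14.9% (ribavirin) of all genes with at least 20 UMIs were 2-fold higher. The ribavirin ratio fell under 2-fold in 4 other settings, at 0.69 to 0.93 on the log2 scale.

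*Tnfrsf4*, which encodes OX40, hardly differed between the libraries as a whole. It stood at 205, 241, 223 and 205 CPM in the same order of libraries. The ratio with OVA was 1.17 (1.12 to 1.23) under vehicle and 0.92 (0.88 to 0.96) under ribavirin, and both were below the median gene, by -0.14 and -0.48 log2. The ribavirin ratio crossed 1 when the limit on mitochondrial reads was set at 5%.

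*Cd40lg* was the member with a lower level with OVA in both pairs. It was at 151 CPM in Vehicle, 69.5 in Vehicle-OVA, 90.1 in Ribavirin and 63.9 in Ribavirin-OVA, so Vehicle was the highest library and the 2 OVA libraries had overlapping intervals. The ratio with OVA was 0.46 (0.42 to 0.50) under vehicle and 0.71 (0.65 to 0.77) under ribavirin. In the vehicle pair it was the 1 member at least 2-fold lower, where 4.98% of all genes were; in the ribavirin pair no member was, against 4.69% of all genes.

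The share of T cell-like cells with a UMI was also measured. After each cell was thinned to 1000 UMIs, *Pdcd1* was detected in 5.19% (4.65 to 5.77), 10.2% (8.71 to 11.8), 7.63% (6.84 to 8.49) and 12.6% (11.1 to 14.2) of cells. For *Cd40lg* the thinned shares were 13.4%, 5.92%, 8.93% and 5.31%. For *Ctla4* they were 38.9%, 45.9%, 39.5% and 46.8%, for *Icos* 42.3%, 56.0%, 41.4% and 54.3%, and for *Tnfrsf4* 11.2%, 12%, 12.5% and 12%. The unthinned shares ranged from 17% to 34.3% for *Pdcd1*, 21.7% to 35.8% for *Cd40lg*, 68.3% to 74.4% for *Ctla4*, 77.0% to 86.2% for *Icos* and 26.1% to 30.1% for *Tnfrsf4*, at medians of 4083 to 5232 UMIs per cell. Plasmacytoid DC-like cells, with medians of 7361.5 to 11229 UMIs, served as background: their unthinned shares were 6.20% to 13.6% for *Ctla4*, and at most 4.09% for *Icos*, 3.64% for *Tnfrsf4*, 1.36% for *Pdcd1* and 0.31% for *Cd40lg*. Thinning left out 0 to 66 T cell-like cells per library.

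Among the T cell subsets, regulatory T cell-like cells (1472 cells, named from *Foxp3* and related markers) had the highest levels of *Ctla4*, *Icos* and *Tnfrsf4* of the named subsets. *Ctla4* in them was at 1366 CPM in Vehicle, 2828 in Vehicle-OVA, 1492 in Ribavirin and 2676 in Ribavirin-OVA, and *Icos* at 927, 1808, 937 and 1621 CPM. *Tnfrsf4* was at 1221, 1440, 1295 and 1321 CPM there and at no more than 70.4 CPM in Cd8 T cell-like cells of any library. The regulatory over Cd8 ratio of *Tnfrsf4* lay between 18.8 (13.5 to 26.9) in Ribavirin-OVA and 29.3 (19.6 to 46.0) in Vehicle-OVA. The size of this ratio depended on the definition: in Vehicle it was 4.59 on the log2 scale, 6.12 with doublets kept and 5.75 with subsets from marker UMIs, where *Tnfrsf4* was at 1042 to 1480 CPM in regulatory and 10.6 to 24.5 CPM in Cd8 cells. *Ctla4* was higher with OVA within this subset too, and *Tnfrsf4* in it had ratios with OVA of 1.18 (1.10 to 1.27) under vehicle and 1.02 (0.95 to 1.09) under ribavirin.

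*Pdcd1* had another order among the cluster-named subsets. In Cd8 T cell-like cells it was at 72.8 CPM in Vehicle and 55.1 in Ribavirin, and at 368 in Vehicle-OVA and 387 in Ribavirin-OVA, from 149 to 291 UMIs. The ratio with OVA in them was 5.06 (4.18 to 6.11) under vehicle and 7.03 (5.66 to 8.75) under ribavirin. These sizes rest on the cluster names. The Cd8 cells with and without OVA mostly lay in different sub-clusters, and the unnamed sub-cluster 7, of 652 cells, scored highest for Cd8 markers. The largest Cd8-named sub-cluster, 3, held 936 cells, 59.8% from Vehicle and 37.7% from Ribavirin. Its top genes included *Cxcr3*, *Ifng* and *Ccl5* but neither *Cd8a* nor *Cd8b1*. Whether its cells were Cd8 T cells was not tested. With T cells and Cd8 cells called from the marker UMIs of single cells, *Pdcd1* in 874, 286, 650 and 392 Cd8 cells was at 65.8, 222, 87.1 and 172 CPM. In T cells with neither a Cd8 nor a regulatory call it was at 50.3, 163, 94.1 and 225 CPM. Cd8 cells thus stood above these T cells in Vehicle-OVA but below them in Ribavirin-OVA under this definition. Within the Cd8 cells both OVA libraries remained above both others. In cluster-named regulatory T cell-like cells the *Pdcd1* ratio with OVA was 1.71 (1.33 to 2.19) under vehicle and 1.43 (1.15 to 1.78) under ribavirin. In type 17 T cell-like cells it was 1.05 (0.87 to 1.27) and 0.88 (0.78 to 0.99). The highest level was in the type 2 T cell-like subset (158 cells), whose top genes were led by *Il13*, *Calca*, *Il4*, *Cyp11a1* and *Il5*. It was at 588 CPM in 47 cells of Vehicle-OVA and 636 CPM in 110 cells of Ribavirin-OVA. These libraries had 82 and 79 Cd8 T cell-like cells. Of the top genes of the type 2 subset, *Il13*, *Calca*, *Il5*, *Il17rb* and *Il1rl1* were also on the marker list of group 2 innate lymphoid cells. T cell markers were not summed for it. That subset held no cell of Vehicle and 1 cell of Ribavirin.

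*Cd40lg* was highest in the type 17 T cell-like subset, at 233 CPM in Vehicle, 141 in Vehicle-OVA, 133 in Ribavirin and 94.9 in Ribavirin-OVA. In regulatory T cell-like cells it was at 32.0, 12.4 and 15.3 CPM in the first 3 libraries and had 0 UMIs in Ribavirin-OVA, where a count of 0 allows up to 3.34 CPM. The 0 depended on the cluster names. With regulatory cells called from marker UMIs, *Cd40lg* was at 33.9, 12.2, 12.2 and 5.37 CPM, with 6 UMIs in Ribavirin-OVA. Cd8 T cell-like cells had 64.5, 12.3, 48.8 and 15.6 CPM.

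After thinning to 1000 UMIs, at least 2 of the 5 transcripts were found together in 65.5%, 83.8%, 66.0% and 79.9% of regulatory T cell-like cells. In Cd8 T cell-like cells this share was 11.8%, 21.2%, 12.7% and 21.6%. Subsets of the same name were made of different sub-clusters with and without OVA, and 3578 of 13850 T cell-like cells were in unnamed sub-clusters. By library these were 771 of 6307, 832 of 1581, 971 of 4075 and 1004 of 1887 T cell-like cells. In both OVA libraries the unnamed cells thus outnumbered every named subset, and the values by named subset leave them out. When T cells were instead split by a *Foxp3* UMI, *Ctla4* was at 1176, 2654, 1408 and 2332 CPM in cells with one and 567, 919, 561 and 889 CPM in cells without.

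**Figure D2:**
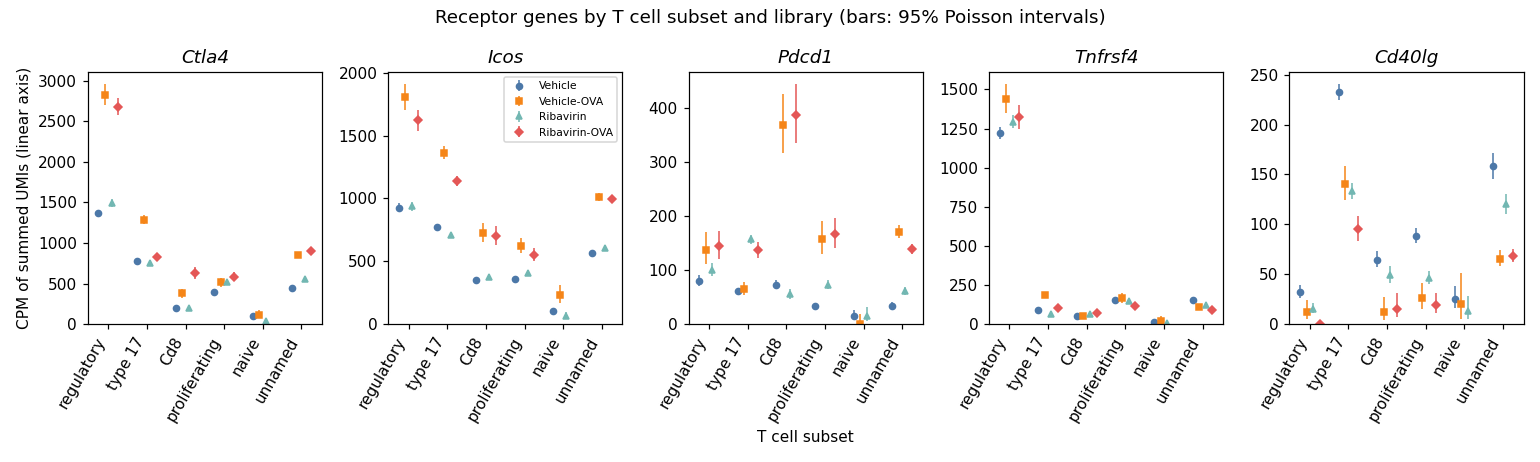
CPM (linear vertical axis, its own scale in each panel) of the 5 T cell-side genes in 6 T cell subsets, with points for the 4 libraries and bars for 95% Poisson intervals. Subsets with fewer than 30 cells in a library are not drawn there, and the type 2 subset is not drawn. *Tnfrsf4* in regulatory cells lay between 1221 and 1440 CPM in all 4 libraries, and *Pdcd1* in Cd8 cells lay between 55.1 and 387.

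Some cells other than T cells also carried T cell-side transcripts. Plasma cell-like cells had *Ctla4* at 302 CPM in Vehicle, 292 in Vehicle-OVA, 302 in Ribavirin and 233 in Ribavirin-OVA, from 1456 to 4390 UMIs. This was 7.63 (5.59 to 10.7) to 10.4 (7.48 to 14.9) times the level in B cell-like cells of the same library. The T cell transcript *Cd3e* was at 1.41 to 5.36 CPM in plasma cell-like cells, against 360 to 380 CPM in T cell-like cells, and *Icos* was at 2.81 to 7.22 CPM there. After thinning, 26.8%, 20%, 23.9% and 19.1% of plasma cell-like cells held a *Ctla4* UMI, and 74.6%, 63.0%, 75.8% and 65.7% did before. This class was made of different clusters with and without OVA. Cluster 15 held 86.1% of it in Vehicle and 85.4% in Ribavirin, and cluster 25 held 75.9% in Vehicle-OVA and 61.6% in Ribavirin-OVA.

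Group 2 innate lymphoid cell-like cells (ILC2-like, 39 to 106 cells per library) had *Icos* at 325, 558, 280 and 468 CPM and *Pdcd1* at 104, 292, 284 and 378 CPM. *Pdcd1* in T cell-like cells was 0.36 (0.30 to 0.43) to 0.61 (0.47 to 0.81) times its level in ILC2-like cells of the same library. *Ctla4* in ILC2-like cells was at 24.8, 177, 36.1 and 493 CPM, resting on 10, 34, 16 and 346 UMIs. The summed NK cell markers of these cells moved with it, at 27.3, 156, 51.9 and 582 CPM over 9 markers, of which 4 to 7 were at 0 in a library. The summed T cell markers were at 629, 912, 602 and 1319 CPM over 10 markers, of which 1 or 2 were at 0. The part of either set in the *Ctla4* values was not tested. Migratory DC-like cells had *Tnfrsf4* at 124, 139, 118 and 80.9 CPM, which was 22.0 (16.6 to 29.5) to 40.5 (27.6 to 60.8) times conventional DC-like cells.

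All 19 other receptors of the pathway were tested in T cell-like cells. With OVA under vehicle 4 of the 19 were at least 2-fold higher and 0 lower, where 18.4% and 4.98% of all genes were. Under ribavirin 3 were higher and 1 lower, against 14.9% and 4.69% of all genes. The list's median log2 ratio was 0.63 and 0.48, against 0.37 and 0.36 for all genes. *Lag3*, an inhibitory receptor for MHC class II, was higher in both pairs, at 20.3 CPM in Vehicle against 159 in Vehicle-OVA and 29.7 in Ribavirin against 148 in Ribavirin-OVA. *Tnfrsf8*, which encodes CD30, was also higher in both, at 2.59 against 23.7 and 5.33 against 16.6 CPM.

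*Cd274* encodes PD-L1. In neutrophil-like cells it stood at 205 CPM in Vehicle, 1099 in Vehicle-OVA, 307 in Ribavirin and 299 in Ribavirin-OVA, from 2525 to 31186 UMIs. Vehicle-OVA stood far above the other 3 libraries, and the intervals of Ribavirin and Ribavirin-OVA overlapped. The ratio with OVA was 5.36 (5.18 to 5.54) under vehicle and 0.97 (0.93 to 1.02) under ribavirin. The class was not made of the same clusters in the 4 libraries. Cluster 6 held 46.0% of it in Vehicle-OVA, 0.0578% (4 cells) in Vehicle, 0.993% in Ribavirin and 3.64% in Ribavirin-OVA. *Cd274* in cluster 6 was at 2016 CPM in Vehicle-OVA, 1870 in Ribavirin and 2567 in Ribavirin-OVA. Cluster 11 held 0.938% of the class in Vehicle, 26.6% in Vehicle-OVA, 1.19% in Ribavirin and 10.8% in Ribavirin-OVA. The part of cluster 11 in the class ratios was not tested. Without the clusters that came from 1 library for at least 90%, cluster 6 among them, the log2 ratio fell from 2.42 to 0.72 under vehicle, and it was -0.39 under ribavirin. The ribavirin value had no settled sign: it lay between -0.39 and 0.44 over the other settings, and was 0.44 with cluster 8, described next, counted as neutrophil-like.

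Within the other clusters of neutrophil-like cells the vehicle ratios were all above 1. They ran from 1.27 (1.18 to 1.36) in cluster 0 to 3.62 (2.47 to 5.48) in cluster 21. Under ribavirin they ran from 0.53 (0.42 to 0.67) in cluster 11 to 1.70 (1.45 to 1.98) in cluster 1. The unnamed cluster 8, which had *S100a9* at 14044 CPM and *Csf3r* at 1169 CPM in Vehicle-OVA but did not meet the naming rule, had *Cd274* at 1131, 2243, 1364 and 2077 CPM in the 4 libraries. It held 124, 2733, 42 and 298 cells.

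*Cd274* was higher in Vehicle-OVA than in Vehicle in most classes, including those that carry little of it. Plasmacytoid DC-like cells had 13.6 CPM in Vehicle and 80.5 in Vehicle-OVA, and epithelial-like cells 15.3 and 57.4. The 12 summed neutrophil markers moved the same way, from 596 to 1614 CPM in plasmacytoid DC-like and from 553 to 2044 CPM in T cell-like cells. In epithelial-like cells they went from 17483 to 29667 CPM. *S100a9* alone went from 273 to 806 CPM in plasmacytoid DC-like and from 268 to 981 CPM in T cell-like cells. In epithelial-like cells it was at 1246 and 1147 CPM, with *S100a8* at 623 and 688 and *Csf3r* at 47.1 and 67.6 CPM. The part of these transcripts in the *Cd274* values of these classes was not tested. In T cell-like cells *Cd274* was at 37.1 and 110 CPM. After thinning, a *Cd274* UMI was found in 46.8% of neutrophil-like, 15.2% of macrophage-like and 4.5% of plasmacytoid DC-like cells of Vehicle-OVA, against 15.4%, 5.48% and 1.25% in Vehicle. Before thinning these shares were 65.6%, 55.7% and 30.0% in Vehicle-OVA and 26.9%, 27.9% and 7.54% in Vehicle, at medians of 3135.5, 8536 and 9479 UMIs and of 2318, 9549 and 7361.5 UMIs.

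Macrophage-like cells had *Cd274* at 56.3, 181, 58.2 and 103 CPM in the 4 libraries, with ratios of 3.21 (3.02 to 3.42) and 1.77 (1.64 to 1.90). Within cluster 5, the main macrophage-like cluster without OVA, the ratios were 1.74 (1.46 to 2.07) and 1.25 (1.03 to 1.52), and within cluster 7, the main one with OVA, 1.12 (0.89 to 1.41) and 0.63 (0.53 to 0.75). The 12 summed neutrophil markers were at 643, 2443, 817 and 804 CPM in macrophage-like cells and at 685, 3588, 1147 and 1342 CPM in conventional DC-like cells, highest in Vehicle-OVA as *Cd274* was, and their part was not tested. Migratory DC-like cells had 264, 670, 397 and 502 CPM, 4.43 (3.88 to 5.07) to 5.84 (4.92 to 6.92) times conventional DC-like cells, which had 57.5, 151, 71.7 and 85.9 CPM. Plasma cell-like cells had 122, 326, 143 and 192 CPM, in a class mostly of cluster 15 without OVA and of cluster 25 with it.

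**Figure D3:**
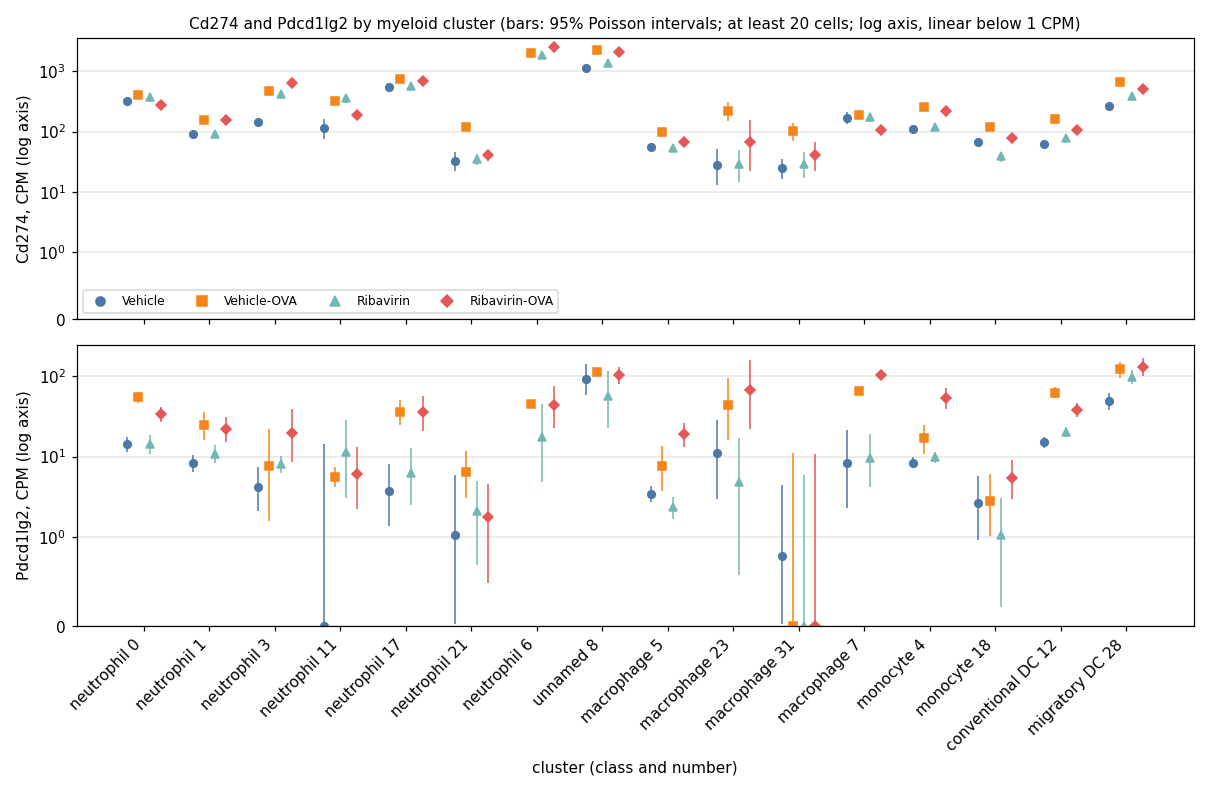
CPM (logarithmic vertical axis, linear below 1 CPM) of *Cd274* (upper) and *Pdcd1lg2* (lower) in the myeloid clusters, with points for libraries with at least 20 cells in the cluster and bars for 95% Poisson intervals. *Cd274* was above 1000 CPM in neutrophil cluster 6 and the unnamed cluster 8 of every library drawn, and *Pdcd1lg2* in macrophage cluster 7 rose from 8.41 and 9.73 CPM without OVA to 66.1 and 103 CPM with it.

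*Pdcd1lg2*, which encodes PD-L2, the second PD-1 ligand, was low in macrophage-like cells without OVA and high with it. It stood at 3.51 CPM in Vehicle, 61.5 in Vehicle-OVA, 2.87 in Ribavirin and 92.7 in Ribavirin-OVA, from 85, 1467, 59 and 1656 UMIs. Both OVA libraries were far above both others. The ratio was 17.5 (14.1 to 22.1) under vehicle and 32.3 (24.9 to 42.6) under ribavirin, 3.97 and 4.80 log2 above the median gene. After thinning, a UMI was found in 0.41% (0.195 to 0.746), 6.08% (5.13 to 7.15), 0.147% (0.0303 to 0.429) and 8.23% (6.91 to 9.70) of cells, against at most 0.90% of plasmacytoid DC-like cells.

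The macrophage-like class was not made of the same clusters with and without OVA. Cluster 7 held 90.4% of it in Vehicle-OVA and 85.6% in Ribavirin-OVA, and cluster 5 held 81.6% in Vehicle and 78% in Ribavirin. The summed macrophage markers were at 63643 and 58610 CPM in Vehicle and Ribavirin and at 20083 and 25579 CPM in Vehicle-OVA and Ribavirin-OVA, and their part in the ligand values was not tested. Within cluster 7 *Pdcd1lg2* had ratios of 7.86 (3.06 to 28.9) and 10.6 (5.37 to 24.6), and within cluster 5 of 2.18 (1.05 to 4.13) and 8.11 (4.95 to 13.2). With single-cell marker UMIs in place of clusters the class ratios on the log2 scale were 3.24 and 3.49, in place of 4.13 and 5.01.

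*Pdcd1lg2* was also higher with OVA in conventional DC-like cells, at 14.4, 56.4, 17.4 and 30.9 CPM, with ratios of 3.93 (3.17 to 4.88) and 1.77 (1.40 to 2.23). In neutrophil-like cells it was at 8.79, 31.2, 9.29 and 19.6 CPM, with ratios of 3.55 (3.01 to 4.21) and 2.11 (1.70 to 2.60). Migratory DC-like cells had 49.1, 122, 98.1 and 131 CPM. T cell-like cells held 36.9% of the *Pdcd1lg2* UMIs of Vehicle and 32.1% of those of Ribavirin, at 16.3 CPM in each. Regulatory T cell-like cells had 55.4 CPM in Vehicle and 48.0 in Ribavirin, against 29.5 in Vehicle-OVA and 24.5 in Ribavirin-OVA.

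*Icosl*, the ligand of ICOS, moved the other way in macrophage-like cells. It was at 23.5 CPM in Vehicle, 7.21 in Vehicle-OVA, 25.3 in Ribavirin and 9.80 in Ribavirin-OVA, with ratios of 0.31 (0.26 to 0.36) and 0.39 (0.32 to 0.46). Within cluster 5 the ratios were 0.90 (0.61 to 1.30) and 0.96 (0.69 to 1.32), and within cluster 7 1.39 (0.38 to 11.6) and 1.42 (0.54 to 5.29), with all 4 intervals covering 1. Migratory DC-like cells had the highest *Icosl*, at 88.6, 74.3, 99.0 and 116 CPM with overlapping intervals, and conventional DC-like cells had 28.8, 39.9, 39.6 and 38.6 CPM. B cell-like cells had 28.4, 71.1, 23.4 and 34.4 CPM, from 29 to 76 UMIs.

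*Cd86*, a ligand of CD28 and CTLA-4, was at 245 CPM in macrophage-like cells of Vehicle, 151 in Vehicle-OVA, 259 in Ribavirin and 131 in Ribavirin-OVA. Both OVA libraries were below both others, with ratios of 0.61 (0.59 to 0.64) and 0.50 (0.48 to 0.53). Within cluster 5 the ratios were 0.95 (0.85 to 1.06) and 0.78 (0.70 to 0.87), and within cluster 7 0.98 (0.78 to 1.26) and 0.72 (0.60 to 0.86). Monocyte-like cells had 178, 146, 195 and 108 CPM, a class whose vehicle ratio turned above 1 in several other settings. Cluster 4 held 85.7%, 41.9%, 78.5% and 24.9% of the monocyte-like cells in the 4 libraries. Conventional DC-like cells had 175, 198, 165 and 152 CPM, migratory DC-like cells had 200, 180, 240 and 205 CPM, while in B cell-like cells the levels were 120, 148, 91.4 and 135 CPM. *Cd86* in macrophage-like over conventional DC-like cells was 1.40 (1.33 to 1.47) in Vehicle and 1.57 (1.49 to 1.66) in Ribavirin, and 0.76 (0.70 to 0.83) and 0.86 (0.79 to 0.95) in the OVA libraries.

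*Cd80*, the other ligand of CD28 and CTLA-4, was highest in migratory DC-like cells, at 68.2, 69.5, 85.0 and 89.2 CPM with overlapping intervals. Neutrophil-like cells had 43.9, 47.1, 48.9 and 53.6 CPM, 1.79 (1.63 to 1.98) to 5.02 (4.31 to 5.86) times macrophage-like cells of the same library. In macrophage-like cells it was at 8.74, 26.3, 10.6 and 11.6 CPM, with ratios of 3.00 (2.57 to 3.53) under vehicle and 1.10 (0.90 to 1.33) under ribavirin. Within cluster 7, which held most of these cells with OVA, the ratios were 1.32 (0.72 to 2.78) and 0.53 (0.33 to 0.89). The neutrophil markers given above were likewise highest in macrophage-like cells of Vehicle-OVA, and their part in the *Cd80* values was not tested.

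Counted over the 5 ligands, 3 were at least 2-fold higher and 1 lower with OVA in macrophage-like cells under vehicle, where 13.3% and 9.2% of all genes were, and 1 was higher and 1 lower under ribavirin, where 11.5% and 5.91% were. In neutrophil-like cells 2 were higher and 0 lower under vehicle (7.29% and 42.2% of all genes) and 1 higher and 0 lower under ribavirin (11.6% and 4.62%). In conventional DC-like cells 2 were higher and 0 lower under vehicle (16.2% and 3.57%) and none passed either way under ribavirin (15.1% and 2.99%). *Pdcd1lg2* was the member past 2-fold in both pairs in macrophage-like and in neutrophil-like cells, and *Icosl* in macrophage-like cells.

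**Figure D4:**
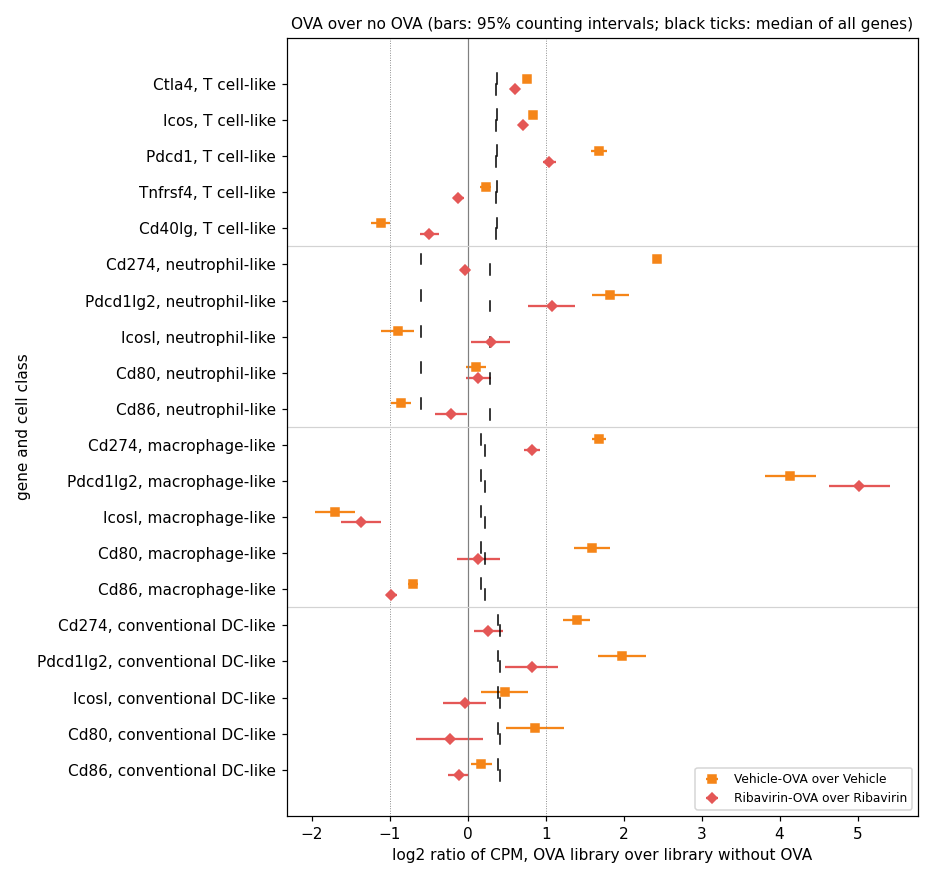
Log2 ratio of CPM, OVA library over the library without OVA (horizontal axis), for the T cell-side genes in T cell-like cells and the ligands in 3 myeloid classes, with squares for the vehicle pair, diamonds for the ribavirin pair, bars for 95% counting intervals and black ticks for the median of all genes. *Pdcd1lg2* in macrophage-like cells lay farthest to the right, at 4.13 and 5.01, and *Cd274* in neutrophil-like cells was at 2.42 in one pair and -0.04 in the other.

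Of 19 other ligands and partners of the pathway, 18 matched a gene in the files, and 13 to 15 had at least 20 UMIs in a pair of these classes. In macrophage-like cells 5 of 15 were higher and 1 lower under vehicle (13.3% and 9.2% of all genes). Under ribavirin 3 of 15 were higher and 1 lower (11.5% and 5.91%). The medians were 0.36 and 0.26 log2, against 0.17 and 0.21 for all genes. *Nt5e*, which encodes the adenosine-producing enzyme CD73, was at 2.64 CPM in Vehicle and 26.3 in Vehicle-OVA, and at 3.55 in Ribavirin and 11.3 in Ribavirin-OVA. *Tnfsf14*, which encodes LIGHT, was at 2.52 and 8.30 CPM and at 2.34 and 7.90 CPM, and *Tnfrsf14*, its receptor HVEM, at 1.90 and 0.38 CPM and at 1.70 and 0.62 CPM. In neutrophil-like cells 2 of 14 were higher and 4 lower under vehicle (7.29% and 42.2% of all genes). Under ribavirin 2 of 13 were higher and 0 lower (11.6% and 4.62%). The medians were -0.17 and 0.36 log2. *Nectin2* (listed as Pvrl2) was higher in both pairs there, from 7 and 26 UMIs and from 12 and 12 UMIs. In conventional DC-like cells 1 of 14 was higher and 2 lower under vehicle (16.2% and 3.57% of all genes). Under ribavirin 0 of 13 were higher and 1 lower (15.1% and 2.99%). The medians were 0.32 and 0.13 log2. *Tnfsf15* had 1 UMI in each OVA library there, against 23 and 19, and the intervals of both ratios, 0.17 (0.0042 to 1.06) and 0.16 (0.0039 to 1.03), covered 1.

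Ribavirin was compared with vehicle at the same OVA state. *Pdcd1* in T cell-like cells was 1.84 (1.73 to 1.95) times as high in Ribavirin as in Vehicle and 1.18 (1.11 to 1.26) times as high in Ribavirin-OVA as in Vehicle-OVA. Without OVA, *Pdcd1* was higher in Ribavirin in the type 17 (2.53, 2.32 to 2.76), proliferating (2.13, 1.78 to 2.55), unnamed (1.77, 1.44 to 2.20) and regulatory (1.25, 1.05 to 1.5) subsets and lower in Cd8 T cell-like cells (0.76, 0.62 to 0.92). With Cd8 cells called from marker UMIs it was instead higher in Ribavirin, at 87.1 CPM against 65.8 in Vehicle. The subsets were not all made of the same sub-clusters in Ribavirin and Vehicle. Unnamed sub-cluster 11 (429 cells, led by *Mup5*) came from Ribavirin for 99.5%, and type 17 sub-cluster 21 (71 cells, led by *Arg1*) for 95.8%. Their part in these ratios was not tested. With OVA the ratio was 2.10 (1.71 to 2.60) in type 17 and 0.82 (0.74 to 0.90) in unnamed cells, and the intervals of the regulatory, proliferating, Cd8 and type 2 subsets covered 1. *Cd40lg* was 0.60 (0.57 to 0.63) times as high in Ribavirin as in Vehicle and 0.92 (0.83 to 1.02) times with OVA. *Ctla4*, *Icos* and *Tnfrsf4* in T cell-like cells had ratios from 0.85 (0.80 to 0.90) to 1.09 (1.05 to 1.13) in either state. *Cd274* in neutrophil-like cells was 1.5 (1.44 to 1.56) times as high without OVA and 0.27 (0.26 to 0.28) times with OVA, the latter with the cluster 6 shares given above. *Pdcd1lg2* in macrophage-like cells was 0.82 (0.58 to 1.15) times as high without OVA and 1.51 (1.41 to 1.62) times with OVA. The latter turned with classes from marker UMIs, to -0.031 on the log2 scale (-0.19 to 0.13).

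Over 45 class and library profiles of at least 100 cells, the genes most like each member by Pearson's r of log2(CPM + 1), among 13099 genes, gave a description of shared pattern only, since profiles of a library share its depth and free RNA. *Ctla4* was most like *Cd28* (0.92), *Smc4* (0.86) and *Tigit* (0.84), and *Icos* most like *Podnl1*, *Cxcr6* and *Camk4* (0.95 each). *Pdcd1* was most like *Adam12* (0.91), *Tnfsf11* and *Tnfrsf25* (0.90 each), and *Tnfrsf4* most like *Il23r* (0.92), *Pdcd1* (0.89) and *Tnfsf11* (0.86). *Cd40lg* was most like *Actn2* (0.96), *Izumo1r* (0.95) and *Cd6* (0.93). *Cd274* was most like *Pim1* (0.91), *Tinf2* and *Mcl1* (0.83 each), and *Pdcd1lg2* most like *Gpr132* (0.78), *Map3k14* and *Actr3* (0.77 each). *Icosl* was most like *Rel* (0.85), *Grb2* (0.79) and *Nfkbie* (0.77), *Cd80* most like *Pik3r6* (0.88), *Pnp2* (0.87) and *Ehd1* (0.86), and *Cd86* most like *Rasgef1b*, *Gm6377* (0.92 each) and *Cd40* (0.90). Between members, the 2 PD-1 ligands had r = 0.56, and *Icos* and *Pdcd1* had 0.90.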

How the data were processed

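CD45+ cells of digested nasal mucosa were isolated by magnetic sorting, as the sample labels say, and sequenced by the droplet method in 1 library per group. Per the labels and file headers, the authors made the deposited matrices with Cell Ranger 5.0.0 on mm10, and the matrices hold raw UMI counts per gene and called cell. The annotation was not given in the sources used here.

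Cells with at least 500 UMIs, 200 genes and under 10% mitochondrial UMIs were kept. Doublets were marked against simulated pairs, and the marked cells were removed (0.941% in Ribavirin-OVA to 6.04% in Vehicle). The expected shares were 4.12% and 11.3% in these libraries, and 26.5% and 55.6% of their simulated doublets passed the threshold. Unmarked doublets can therefore remain. Cells were clustered (Leiden, resolution 1.0, 30 components, 2000 variable genes, igraph 0.11.9), with 47 genes, the members and their pathway lists, left out of the variable genes. A cluster was named from marker lists when at least 3 markers were 2-fold enriched and found in at least 10% of its cells. No other list could hold more of its top 10 genes. A shallow cluster also needed a marker among them. Of the qualifying lists the one with the highest mean enrichment was taken. That mean could be negative on the log2 scale, at -0.491 and -0.669 in type 17 sub-clusters 0 and 6 and -0.397 and -0.23 in neutrophil clusters 0 and 6. This naming rule was set after the clusters had been seen, and the members and gene lists were chosen with earlier results of these data known. T cell-like clusters were clustered again into 25 sub-clusters.

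Levels were summed UMIs per 1000000, with exact Poisson intervals for levels, exact conditional binomial intervals for ratios and Clopper-Pearson intervals for shares, all at 95%. No test was made, as every group was a single library. Limits from a count of 0 used 3 counts. Ratios over lists and all genes used genes with at least 20 UMIs in the pair. Genes outside the members were named when they passed 2-fold the same way in both OVA pairs. Thinning drew 1000 UMIs per cell. The interval code was tested on simulated data. Other cell filters, resolutions, class definitions and scalings were tried, and 2 alternatives were chosen after seeing the data: cluster 8 counted as neutrophil-like, and T cell-like clusters led by myeloid genes left out.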

Additional observations from a re-analysis of the deposited data

Results flagged for a closer look

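*Tnfrsf4* in T cell-like cells was higher with OVA under vehicle (0.23 on the log2 scale) and lower under ribavirin (-0.12), a difference of 0.3514. *Icosl* in neutrophil-like cells was lower with OVA under vehicle (-0.90) and higher under ribavirin (0.29), a difference of -1.1938. Both were noted because the 2 OVA pairs moved in opposite directions, with 1 library in each group, and the difference was not tested.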

How the results depend on the processing

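No paired analysis was possible because each group had 1 library, and no library was left out for the same reason. Over 123 results and 1288 values from other settings, 945 stayed within the counting interval, 327 moved beyond it and 16 changed direction. The cause was not tested for any of these. Values here are on the log2 scale.

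*Pdcd1* in T cell-like cells with OVA under vehicle (1.68) was 1.45 with doublets kept, 1.482 at resolution 2.0, 1.33 with CPM averaged over single cells and 1.46 without ribosomal protein and mitochondrial genes. Under ribavirin (1.04) these were 0.72, 0.69, 0.93 and 0.85, and it was 1.13 with classes from marker UMIs and 1.20 without clusters of 1 library. Ribavirin over Vehicle (0.88) was 0.78 with marker UMIs, 0.66 as a single-cell mean and 0.73 without clusters of 1 library.

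*Cd274* in neutrophil-like cells with OVA under vehicle (2.42) was 2.49 and 2.48 at mitochondrial limits of 5% and 20%, 2.56 with at least 1000 UMIs and 500 genes, 2.60 with doublets kept, 2.57 and 2.59 at resolutions 0.5 and 2.0, 2.37 with marker UMIs, 2.37 as a single-cell mean, 2.34 without ribosomal protein and mitochondrial genes, 2.57 with cluster 8 and 0.72 without clusters of 1 library. Under ribavirin (-0.04) it was -0.23, 0.071, 0.40, 0.30, 0.44, 0.34, 0.25 and 0.14 in the first 8 of these, 0.44 with cluster 8 and -0.39 without clusters of 1 library.

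*Pdcd1lg2* in macrophage-like cells under vehicle (4.13) was 3.73, 3.34, 3.30, 3.27, 3.33, 3.23 and 3.24 for the limits of 5% and 20%, the higher UMI limit, doublets kept, both resolutions and marker UMIs. Under ribavirin (5.01) it was 3.91, 3.86, 3.91, 3.91, 3.88 and 3.49 for the same settings from the 20% limit on. *Ctla4* in plasma cell-like over macrophage-like cells of Vehicle (5.31) was 3.39 with doublets kept, and *Tnfrsf4* in regulatory over Cd8 T cells of Vehicle (4.59) was 6.12 with doublets kept and 5.75 with marker UMIs.

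Directions changed as follows. In T cell-like cells *Ctla4* was -0.016 for Ribavirin over Vehicle with marker UMIs, and 0.0092 and 0.0037 for Ribavirin-OVA over Vehicle-OVA with the higher UMI limit and with doublets kept, and *Tnfrsf4* with OVA under ribavirin was 0.012 at the 5% limit. With marker UMIs, Ribavirin-OVA over Vehicle-OVA was -0.031 for *Pdcd1lg2* and -0.031 for *Icosl* in macrophage-like cells and -0.77 for *Pdcd1lg2* in monocyte-like cells. With OVA under vehicle, conventional DC-like *Icosl* was -0.028 as a single-cell mean and *Cd86* -0.030 without ribosomal protein and mitochondrial genes, and monocyte-like *Cd86* was 0.32 at the 20% limit, 0.31 with the higher UMI limit, 0.34 at resolution 0.5 and 0.70 with marker UMIs. With doublets kept, Ribavirin over Vehicle for monocyte-like *Cd86* was -0.23, and *Cd40lg* in regulatory over Cd8 T cells was 1.01 in Vehicle and 1.73 in Ribavirin.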
